A study of Mus musculus with 38 samples.

Results

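The latrophilins *Lphn1*, *Lphn2* and *Lphn3* and the FLRT genes *Flrt1*, *Flrt2* and *Flrt3* were followed as a receptor and ligand family, 6 of the 23420 genes counted in each library. The family was chosen from differences between dVenus+ and dVenus- cells already known in these libraries, so its dVenus differences are given as a description and support nothing further. The rows were taken by their symbols in the count files, which use the older latrophilin names (now *Adgrl1*, *Adgrl2* and *Adgrl3*). The question addressed was how the transcriptome of dentate gyrus granule cells with recent *Arc* promoter activity differs from that of their neighbours after contextual learning.

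RNA was sequenced from 38 libraries of 19 adult male *Arc*::dVenus mice, 8 to 12 weeks old, backcrossed to C57BL/6J. All mice carried the transgene, with a destabilized Venus protein under the *Arc* promoter, and each gave 1 library of 10 pooled dVenus+ cells and 1 of 10 pooled neighbouring dVenus- cells. Fear-conditioned mice (FC, n = 12) received 3 tones with 3 foot shocks, no-shock mice (NS, n = 4) received 3 tones without a shock, and both were sampled 24 h later. Home-cage mice (HC, n = 3) were not trained. For 6 of the 14 NS and HC libraries the description label gives the other cell type than the title, and the titles were used throughout. *Arc* was higher in the library titled dVenus+ in 7 of 7 of these mice. Total counts on genes ranged from 1352288 to 18394761 per library (median 8013005), with 7037 to 13286 genes detected. *Arc*, which checks the dVenus label, had its higher level in dVenus+ cells in 19 of 19 mice, although FC mice 06, 07 and 14 had 1276, 1095 and 2549 *Arc* counts in their dVenus- libraries. The FC libraries came from 3 sequencing runs and all NS and HC libraries from another, so that training and run cannot be told apart when FC levels are set against NS or HC levels.

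Latrophilins are adhesion G protein-coupled receptors with a long extracellular part, and the first of them was found as a receptor for the spider toxin alpha-latrotoxin. FLRT proteins are leucine-rich repeat membrane proteins that bind latrophilins across the synaptic cleft, and they also bind Unc5 receptors. Teneurins and neurexins are further latrophilin ligands. In the hippocampus, latrophilins and FLRT3 are known for their part in excitatory synapse formation, and Shank scaffolds bind the intracellular end of latrophilins. In cell pools such as these, fewer expressing cells and less RNA per cell cannot be told apart.

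In GRCm38 (mm10), *Lphn1* lies on chr8:83900105-83941954 (plus strand), *Lphn2* on chr3:148815583-148990555 (minus), *Lphn3* on chr5:81020138-81825133 (plus), *Flrt1* on chr19:7092001-7105729 (minus), *Flrt2* on chr12:95692226-95785215 (plus) and *Flrt3* on chr2:140650914-140671469 (minus), as annotated by GENCODE M21. *Lphn3* spans 804996 bases with 17750 bases of exon, against 41850 and 8587 bases for *Lphn1*. Exons of *Lphn1*, *Lphn2* and *Lphn3* overlap predicted genes on the opposite strand (3, 1 and 1 of them), from which reads cannot be told apart where strand is not used in counting.

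Promoter windows of 300 bases (250 before to 50 after a RefSeq start, GRCm38.p6) were at hand for 5 of the members, with 3 windows for *Lphn3*. They are shown for *Lphn3*, the member with the largest dVenus difference in FC mice, for its paralogue *Lphn1*, and for *Flrt3*, the most abundant FLRT per length. Capitals mark matches to any of 6 motifs searched on both strands. These were the cAMP response element TGACGTCA, its half-site TGACG, the AP-1 site TGANTCA, the TATA box TATAAA, the E-box CACGTG and the CArG box.
Lphn3, second window, chr5:81020502-81020801, plus strand: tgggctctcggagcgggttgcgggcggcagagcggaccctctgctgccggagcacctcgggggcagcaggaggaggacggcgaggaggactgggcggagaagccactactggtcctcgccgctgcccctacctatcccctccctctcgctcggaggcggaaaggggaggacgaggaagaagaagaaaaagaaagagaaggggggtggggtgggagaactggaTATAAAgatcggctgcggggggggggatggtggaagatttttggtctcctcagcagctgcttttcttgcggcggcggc
Lphn1, chr8:83899848-83900147, plus strand: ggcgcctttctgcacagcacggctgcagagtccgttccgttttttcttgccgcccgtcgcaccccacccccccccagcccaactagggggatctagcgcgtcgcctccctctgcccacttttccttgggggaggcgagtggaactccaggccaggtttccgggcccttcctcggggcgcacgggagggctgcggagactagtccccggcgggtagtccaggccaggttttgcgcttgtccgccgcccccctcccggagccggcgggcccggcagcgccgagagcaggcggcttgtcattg
Flrt3, chr2:140671427-140671726, minus strand: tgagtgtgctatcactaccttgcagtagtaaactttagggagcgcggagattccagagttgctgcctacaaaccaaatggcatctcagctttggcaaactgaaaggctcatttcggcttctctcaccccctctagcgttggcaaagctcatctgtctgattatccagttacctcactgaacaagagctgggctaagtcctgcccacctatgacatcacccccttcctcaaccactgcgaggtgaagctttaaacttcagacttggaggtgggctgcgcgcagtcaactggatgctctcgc
The second *Lphn3* window held 1 match, TATAAA beginning 28 bases before the start, and 13.6% of all 32851 windows hold that motif. The windows of *Lphn1* and *Flrt3* and the other *Lphn3* windows held none of the 6 motifs. *Flrt2* held the half-site (20.8% of all windows) and the E-box (7.15%), and *Lphn2* the half-site and the TATA box. The full response element, the AP-1 site and the CArG box, found in 1.79%, 7.81% and 1.63% of all windows, matched none of the members' windows.

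In 12 of 12 FC mice, *Lphn3* had its higher level in dVenus+ cells. Its level is given here as normalized CPM, counts relative to the library total on genes with TMM scaling. In FC dVenus+ libraries it ranged from 16.7 to 369.9 normalized CPM with a median of 188 (56 to 3561 counts), and in FC dVenus- libraries from 0.527 to 72.5 with a median of 6.14 (9 to 876 counts). The lowest dVenus+ library, from mouse 14, lay below the highest dVenus- library, from mouse 04, so the groups overlapped although no mouse went against the direction. Within mice the dVenus+ level was 5.10 to 373 times the dVenus- level, with a median of 19.0. The paired fit gave a log2 fold change of 4.72 (standard error 0.64, 12 mice). *Lphn3* was the 1 member called, which means an adjusted p under 0.05 and a log2 fold change over 1 in either direction, beside a background in FC of 1.41% of 9709 genes, 0.577% as higher and 0.834% as lower in dVenus+ cells. In mice 06, 07 and 14, whose dVenus- libraries held the most *Arc* counts, the dVenus- libraries had 54, 12 and 23 *Lphn3* counts.

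The direction was shared by the 3 sequencing runs of the FC mice. The median dVenus+ to dVenus- ratio of *Lphn3* was 28.0 in the run with 2 mice, 176 in the run with 4 and 13.1 in the run with 6, and every mouse of each run was higher in dVenus+ cells. Fitted on their own, the runs gave log2 fold changes of 4.46 (standard error 1.58), 6.56 (1.45) and 3.97 (0.61), none of which was called.

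**Figure D1:**
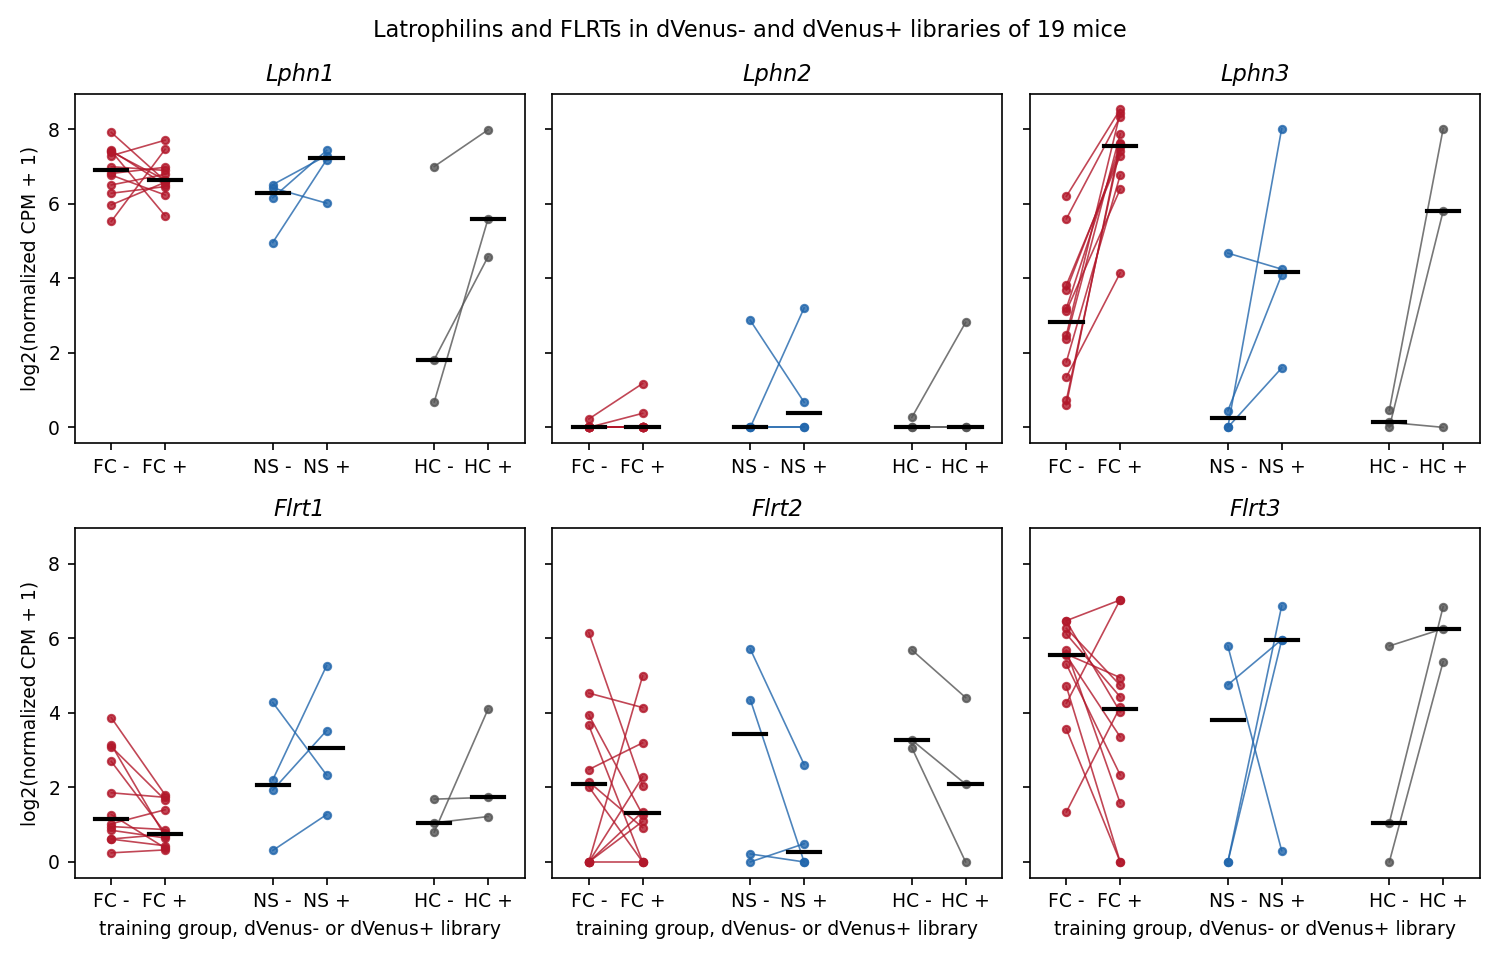
Level of each member as log2(normalized CPM + 1) in the dVenus- and dVenus+ library of every mouse (FC red, 12 mice, NS blue, 4 mice, HC grey, 3 mice). Lines join the libraries of 1 mouse and black bars mark group medians. All 12 FC lines rise for *Lphn3*, while those of *Lphn1* rise in 6 mice and fall in 6.

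In NS mice, *Lphn3* was at 258, 16.1, 2.02 and 18.0 normalized CPM in the dVenus+ libraries of mice 18, 19, 20 and 21, and at 0, 0.361, 0 and 24.6 in their dVenus- libraries. Mouse 18 stood far above the other dVenus+ libraries, and mouse 21 had the higher level in dVenus- cells. In HC mice 15, 16 and 17 it was at 258, 54.9 and 0 normalized CPM in dVenus+ and at 0.371, 0 and 0.0973 in dVenus- libraries. Mice 15 and 16 were higher in dVenus+ cells, by 695 times in mouse 15 (940 against 5 counts) and at least 90.8-fold in mouse 16 (118 against 0 counts, taking 3 counts in that library as the floor), whereas both libraries of mouse 17 lay at or under 3 counts. The NS fit gave a log2 fold change of 5.90 (standard error 3.08), not called by edgeR but called by DESeq2 (6.20), and it was 4.16 without mouse 18 and 7.97 without mouse 21. *Lphn3* did not pass the count filter in HC. In NS 0% of 8187 genes were called by edgeR, with 384 at an unadjusted p under 0.05 and 671 called by DESeq2, and in HC 0.0264% of 7588 genes, 2 genes, were called by edgeR.

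The dVenus difference of *Lphn3* was not shown to differ between the training groups. In 1 fit of the 38 libraries it was lower in FC than in NS by -1.16 on the log2 scale (95% interval -5.21 to 2.89, adjusted p = 0.974) and lower than in HC by -3.00 (-8.37 to 2.36, adjusted p = 0.809, edgeR's quasi-likelihood test). These intervals leave room for large differences in either direction. In both interaction tests 0% of 14075 genes were called, with 763 and 892 genes at an unadjusted p under 0.05 for FC against NS and FC against HC and 1206 and 1565 genes called by DESeq2.

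*Lphn1*, the paralogue of *Lphn3*, was read in 38 of 38 libraries. In FC mice its dVenus+ libraries ran from 50.4 to 208 normalized CPM around a median of 98.1, and its dVenus- libraries from 45.1 to 241 around one of 119. The ranges nearly coincide, and 6 of 12 mice were higher in each cell type. Its fitted log2 fold change in FC was -0.12 (standard error 0.38), not called. In NS mice 18 to 21 it was at 144, 172, 156 and 63.8 in dVenus+ and at 30.2, 70.6, 90.4 and 85.2 in dVenus- libraries, higher in dVenus+ cells of 3 of 4 mice. In HC mice 15 to 17 it was at 253, 47.5 and 22.9 in dVenus+ and at 127, 0.604 and 2.53 in dVenus- libraries, higher in dVenus+ cells of 3 of 3 mice. The FC difference was lower than the HC difference by -3.48 on the log2 scale (standard error 1.21), with an adjusted p of 0.757 (edgeR).

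*Lphn2* was at 0 counts in 30 of 38 libraries. It passed 3 counts in 4 libraries, with 61 counts in dVenus+ cells of NS mouse 18, 35 in dVenus- cells of NS mouse 19, and 13 each in dVenus+ cells of FC mouse 06 and HC mouse 16. A count of 0 allows up to 0.163 to 2.22 CPM in these libraries (3 counts of the total before scaling, counting error only). *Lphn2* did not pass the filter of the FC, NS or HC comparison of dVenus+ with dVenus- cells, so that 5 of 6 members were tested in FC and 4 of 6 in each of NS and HC. It entered only the fit of all 38 libraries, where its dVenus difference was not called between FC and NS (0.53, standard error 3.21) or between FC and HC (-1.78, 14.0).

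The receptors were also compared within each library, where library scaling plays no part. Counts were divided by exon length, and the share of *Lphn3* among the 3 latrophilins was taken. In FC dVenus+ libraries it ranged from 13.8% to 61.6% with a median of 46.3%, and in FC dVenus- libraries from 0.25% to 18.4% with a median of 2.28%. The share was higher in dVenus+ cells of 12 of 12 FC mice, 3 of 4 NS mice and 2 of 3 HC mice. Medians in NS were 8.16% in dVenus+ and 0.117% in dVenus- libraries, and those in HC were 33.1% and 0.141%. The HC shares rest on few reads, since the dVenus- libraries of mice 16 and 17 held 4 and 27 latrophilin counts, with 0 and 1 on *Lphn3*. In the pools from FC dVenus- cells *Lphn1* thus made up most of the latrophilin reads per length. In those from FC dVenus+ cells *Lphn3* exceeded 50% per length in 3 of 12 libraries. Of counts not divided by length, its share there had a median of 64.0% (24.8% to 76.8%) and exceeded 50% in 9 of 12.

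**Figure D2:**
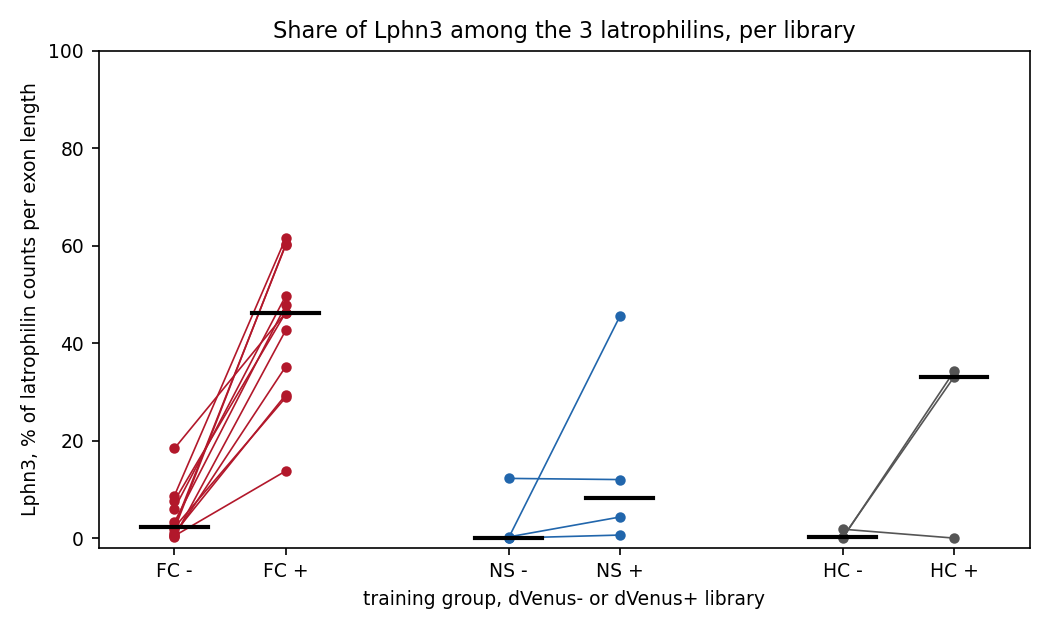
Share of *Lphn3* in the length-corrected counts of the 3 latrophilins, in percent, in every dVenus- and dVenus+ library (FC red, NS blue, HC grey, lines join the libraries of 1 mouse, black bars are medians). The FC dVenus+ libraries have a median of 46.3% against 2.28% in FC dVenus- libraries.

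Among the ligands, *Flrt3* had its lower level in dVenus+ cells in 9 of 12 FC mice. Its dVenus+ libraries ran from 0 to 131 normalized CPM around a median of 16.1, and its dVenus- libraries from 1.53 to 88.0 around one of 46.2, so the groups overlapped widely. Mice 05, 06 and 09 had the higher level in dVenus+ cells, and mice 01 and 04 had no *Flrt3* count there against 317 and 131 counts in dVenus- cells. The fitted log2 fold change in FC was -1.98 (standard error 1.13), not called by edgeR but called by DESeq2 (-1.96). It depended on which mice were fitted, at -6.66, -0.28 and -1.71 in the runs of 2, 4 and 6 mice, and was -0.51 without the mouse as block. In NS mice 18 to 21 *Flrt3* was at 116, 61.6, 60.9 and 0.234 in dVenus+ and at 0, 26.0, 0 and 54.7 in dVenus- libraries, higher in dVenus+ cells of 3 mice and lower in mouse 21. In HC mice 15 to 17 it was at 75.7, 40.5 and 115 in dVenus+ and at 54.6, 0 and 1.07 in dVenus- libraries, higher in dVenus+ cells of all 3. The FC difference was lower than that in NS by -7.16 on the log2 scale (standard error 4.56, adjusted p = 0.876) and lower than that in HC by -8.02 (3.88, adjusted p = 0.77), neither of which passed the edgeR test, whereas DESeq2 called both.

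*Flrt1*, another FLRT ligand, was read at a low level in every library, with 1 to 126 counts. In FC its dVenus+ libraries ran from 0.251 to 2.49 normalized CPM around a median of 0.696, and its dVenus- libraries from 0.184 to 13.6 around one of 1.22, lower in dVenus+ cells of 9 of 12 mice. In 5 of the 12 mice a library held 3 counts or fewer, so that only 7 gave a ratio. Its fitted log2 fold change was -1.02 (standard error 0.53), not called. In NS it was at 4.04, 37.5, 1.41 and 10.5 in dVenus+ and at 18.4, 3.61, 0.238 and 2.80 in dVenus- libraries of mice 18 to 21. In HC mice 15 to 17 it was at 16.2, 2.33 and 1.33 in dVenus+ and at 0.742, 2.22 and 1.07 in dVenus- libraries. The dVenus+ library was thus the higher one in 3 of 4 NS and 3 of 3 HC mice.

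*Flrt2* had no count in 12 of 38 libraries. In FC its dVenus+ libraries ran from 0 to 30.8 normalized CPM around a median of 1.48, and its dVenus- libraries from 0 to 70.2 around one of 3.24, with 4 mice higher in dVenus+ cells, 6 lower and 2 with both libraries at or under 3 counts. The standard error of its FC fit, 2.34 around a log2 fold change of -0.20, exceeded the estimate. In HC mice 15 to 17 it was at 20.3, 3.26 and 0 in dVenus+ and at 50.7, 8.66 and 7.39 in dVenus- libraries, lower in dVenus+ cells of all 3. In NS mice 18 and 19 it was likewise lower (38 against 338 and 0 against 108 counts), and the libraries of mice 20 and 21 did not pass 3 counts.

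Per kilobase of exon, the median order in FC dVenus+ libraries was *Lphn1* (11.4 normalized CPM per kb), *Lphn3* (10.6), *Flrt3* (3.31), *Flrt2* (0.191), *Flrt1* (0.118) and *Lphn2* (0). In FC dVenus- libraries it was *Lphn1* (13.9), *Flrt3* (9.50), *Flrt2* (0.42), *Lphn3* (0.346), *Flrt1* (0.209) and *Lphn2* (0). Neighbours in these orders overlapped in range, except *Flrt1* (0.0314 to 2.32) and *Lphn2* (0 to 0.0119) in dVenus- cells. Overlapping neighbours included *Lphn1* with *Lphn3* in dVenus+ cells (5.87 to 24.2 and 0.94 to 20.8) and *Lphn1* with *Flrt3* in dVenus- cells (5.26 to 28.0 and 0.315 to 18.1).

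Levels between training groups were tested in each cell type. The family was not chosen on these comparisons. They use the same libraries as the dVenus differences it was chosen on, so they are not independent of the choice. Between NS and HC, which share a sequencing run, 0 members were called of the 4 tested in dVenus+ and the 4 tested in dVenus- cells. In these tests 0% of 8706 and 0% of 8547 genes were called by edgeR, with 300 and 280 at an unadjusted p under 0.05 and 110 and 144 called by DESeq2. The fitted NS to HC difference of *Lphn3* in dVenus+ cells was -0.45 on the log2 scale (95% interval -4.50 to 3.59).

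Between FC and the mean of NS and HC, 0 of 5 members were called in dVenus+ cells, where 0.181% of 9967 genes were, and 0 of 5 in dVenus- cells, where 0.711% of 10554 genes were. *Lphn3* in dVenus- cells had a fitted difference of 3.80 on the log2 scale, FC over the others (standard error 1.62, adjusted p = 0.191), and in dVenus+ cells one of 1.20 (0.88, adjusted p = 0.527). *Flrt1* in dVenus+ cells had one of -3.04 (standard error 0.81, adjusted p = 0.0705), with a highest FC library of 2.49 normalized CPM and NS and HC libraries from 1.33 to 37.5. *Lphn1* differed by -0.08 in dVenus+ (0.47, adjusted p = 0.954) and by 1.22 in dVenus- cells (0.68, adjusted p = 0.342), all by edgeR's quasi-likelihood test. *Slc1a3*, an astrocyte marker, was lower in FC dVenus+ cells by -4.003 (standard error 0.81, adjusted p = 0.0441, edgeR), and the astrocyte sum ran from 1.77 to 758 normalized CPM in FC, 328 to 730 in NS and 184 to 826 in HC dVenus+ libraries. The part of such markers in the level differences was not tested.

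The other partners of the family were read from lists written with earlier results of these data known. Of 6 teneurins and neurexins listed as ligands of latrophilins, 5 were tested in FC. Of these 1 was called, as higher in dVenus+ cells, beside 0.577% of all genes tested called as higher. *Nrxn3*, a presynaptic neurexin, was higher in dVenus+ cells of 12 of 12 FC mice. Its dVenus+ libraries ran from 93.0 to 706 normalized CPM around a median of 143, and its dVenus- libraries from 1.60 to 113 around one of 23.3. The edgeR fit put the change at 2.77 on the log2 scale, with a standard error of 0.53 and an adjusted p of 0.0115. The groups overlapped only between the lowest dVenus+ and the highest dVenus- libraries, and 4 of 4 NS and 2 of 3 HC mice were higher in dVenus+ cells.

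*Tenm2*, a teneurin and the gene of the list with the highest mean normalized CPM, was higher in dVenus+ cells of 5 and lower in 7 of 12 FC mice. Its dVenus+ libraries ran from 6.46 to 246 normalized CPM around a median of 121, and its dVenus- libraries from 56.9 to 295 around one of 127, with a fitted log2 fold change of -0.58 (standard error 0.52), not called. It was higher in dVenus+ cells of 2 of 4 NS and 3 of 3 HC mice. The remaining tested ligands, *Tenm1* (-2.85, standard error 1.25), *Tenm4* (2.44, 1.54) and *Nrxn2* (0.86, 0.66, all log2 fold changes in FC), were not called. The list's median log2 fold change was 0.86 against -0.21 over all genes tested.

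**Figure D3:**
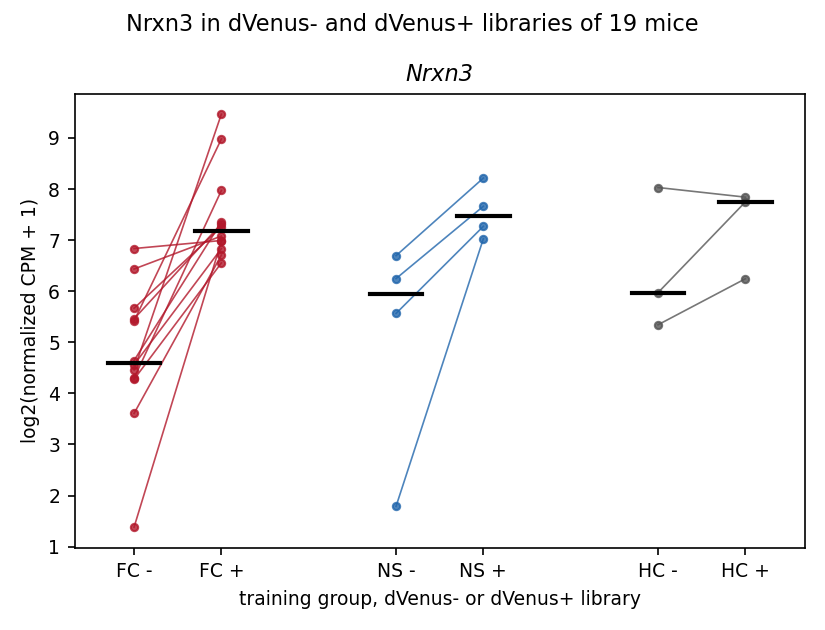
*Nrxn3* as log2(normalized CPM + 1) in the dVenus- and dVenus+ library of every mouse (FC red, NS blue, HC grey, lines join the libraries of 1 mouse, black bars are medians). The level rises from dVenus- to dVenus+ in 12 of 12 FC mice.

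None of the other partner lists held a gene called by edgeR in FC, NS or HC, where 1.41%, 0% and 0.0264% of all genes tested were called. Over all partner lists DESeq2 called 5 of 18, 3 of 22 and 1 of 20 genes. Of all genes tested it called 1651 of 9709, 671 of 8187 and 625 of 7588. Of 6 FLRT partners (the Unc5 receptors *Unc5a* to *Unc5d*, *Robo1* and *Fgfr1*), 4 were tested in FC, with a median log2 fold change of -0.03, and *Unc5a*, with the highest mean normalized CPM of them, had -1.25 (standard error 0.57) with 9 of 12 mice lower in dVenus+ cells. Of the 3 Shank scaffolds of the postsynaptic density, all were tested, with a median of 0.84, and *Shank1* had 1.10 (0.51) with 9 of 12 mice higher. Of 28 other adhesion receptors 26 were found by symbol and 6 tested in FC, with a median of -0.97. *Bai2*, with the highest mean normalized CPM of these, had -0.69 (0.53), with 9 of 12 mice lower. In NS and HC the ligand list had median log2 fold changes of 1.99 and 0.97, the FLRT partners 3.22 and 1.68, the Shank scaffolds 0.49 and 2.04 and the other adhesion receptors 2.05 and -0.01, against 0.20 and 0.11 over all genes tested.

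**Figure D4:**
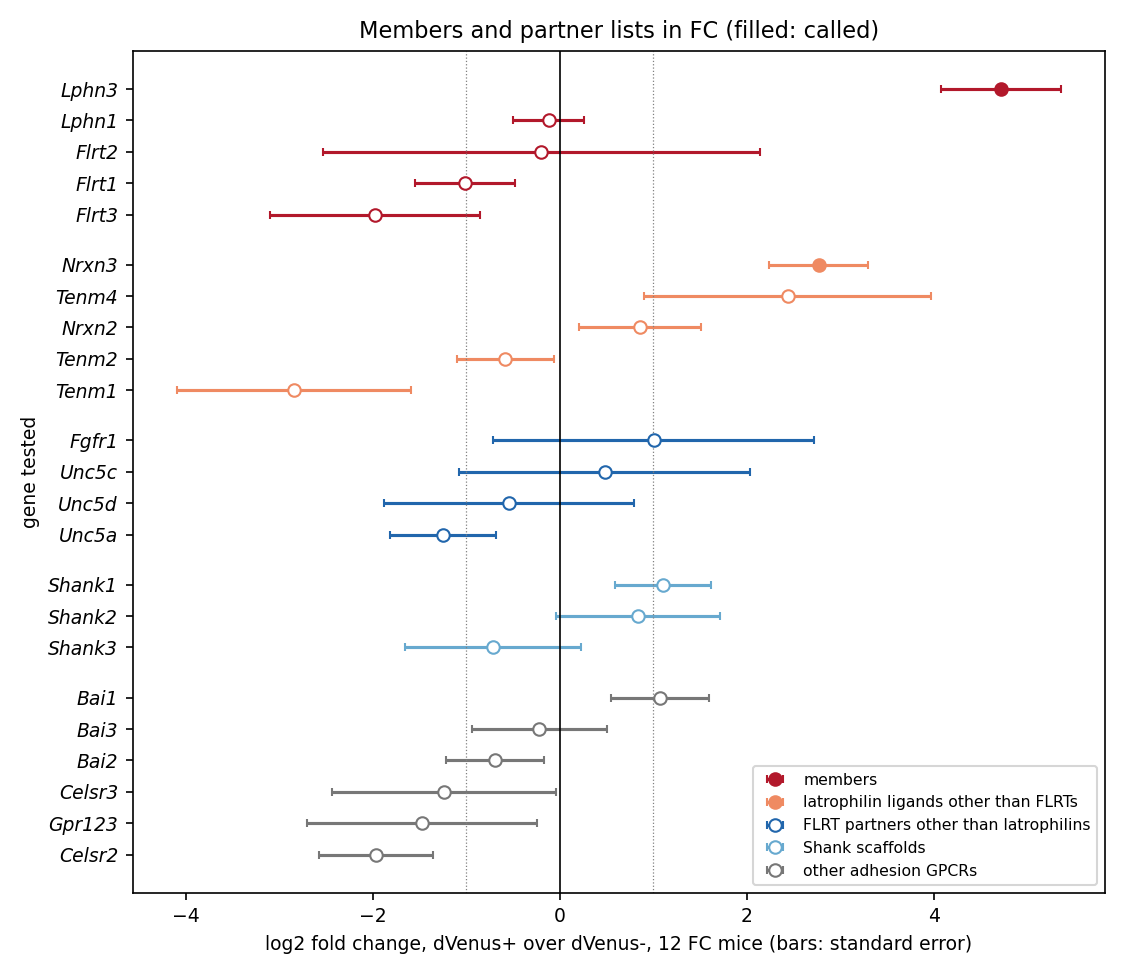
Fitted log2 fold change of dVenus+ over dVenus- cells in 12 FC mice for the members and partner genes tested (bars are standard errors, filled points were called, dotted lines mark a log2 fold change of 1 in either direction). *Lphn3* at 4.72 and *Nrxn3* at 2.77 are the filled points.

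Cell type markers were read beside these genes. Of 7 granule cell markers tested in FC, 7 had a negative fitted log2 fold change. Of them 1 was called (*Calb1*, -3.14, standard error 0.58), beside 0.834% of all genes tested called as lower. Their summed level was 277 to 2581 normalized CPM in dVenus+ and 1328 to 3368 in dVenus- libraries. *Prox1*, which defines granule cells, had medians of 66.0 and 106 in FC, and it ran from 9.43 to 32.7 in NS dVenus+ libraries against 95.7 to 220 in NS dVenus- libraries. In HC it ran from 3.85 to 28.0 in dVenus+ and from 22.2 to 118 in dVenus- libraries. Of 10 microglia markers 8 were tested in FC, all with a positive fitted value and none called. These ran from 0.90 (*P2ry12*) to 7.10 (*C1qa*), with a median log2 fold change of 5.03 against -0.21 over all genes tested. *Csf1r* came nearest to a call (6.78, standard error 1.66, adjusted p = 0.0501, edgeR). The summed level of the 10 markers was 39.0 to 2087 (median 242) in FC dVenus+ and 1.23 to 868 (median 37.5) in FC dVenus- libraries. In NS it was 79.4 to 1373 (median 740) and 7.76 to 480 (22.6), and in HC 391 to 1388 (1341) and 33.5 to 504 (309). *Aif1* was at 0 in every HC dVenus- library. *P2ry12* went the other way in HC, with a median of 62.9 in dVenus- against 19.8 in dVenus+ libraries. *Tmem119* reached 140 in HC dVenus- and 135 in HC dVenus+ libraries. The part of the microglia markers in the member differences was not tested. In the FC dVenus+ library with the lowest microglia sum (39.0, mouse 12) *Lphn3* was at 170, and in that with the highest (2087, mouse 09) at 323. Spearman's rho between *Lphn3* and the microglia sum was 0.29 over the 12 FC dVenus+ libraries and -0.04 over the 19 dVenus+ libraries.

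The remaining marker lists held no called gene in FC, beside 1.41% of all genes tested. Of 6 interneuron, 5 astrocyte and 5 oligodendrocyte markers, 3, 2 and 3 were tested there, and none of the 3 mossy cell, 2 oligodendrocyte precursor and 3 endothelial markers was. Of the interneuron markers tested, *Gad1* had a fitted log2 fold change of -2.13 (standard error 0.79), *Pvalb* -1.80 (2.10) and *Gad2* 0.47 (1.03). Of the astrocyte markers tested, *Slc1a3* had -3.28 (1.504) and *Gfap* -0.52 (1.59). The interneuron sum ranged from 15.2 to 404 normalized CPM in FC dVenus+ (median 55.4) and from 29.5 to 2482 in FC dVenus- libraries (median 139). The astrocyte sum ranged from 1.77 to 758 (median 52.5) and from 2.74 to 722 (median 108). The oligodendrocyte sum, from 137 to 2978 (median 479) and from 203 to 4361 (median 545), was high in both. The endothelial sum did not exceed 4.64 normalized CPM in any FC library. The mossy cell sum ranged from 0 to 21.5 in FC dVenus+ (median 5.52) and from 0 to 20.1 in FC dVenus- libraries (median 1.63). *Drd2*, which marks mossy cells, was at 0 in all of them. *Calb2*, also on that list, had medians of 4.51 in FC dVenus+ and 0.0266 in FC dVenus- libraries, and *Calcrl* had 0.102 and 0.235.

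The genes whose pattern over the 38 libraries was most like that of *Lphn3* were *Gsg1l* (Spearman's rho 0.77), an AMPA receptor auxiliary subunit, *R3hdm1* (0.74), *Ccnt2* (0.74), a cyclin of transcription elongation, *Riok3* (0.73) and *Penk* (0.72), the enkephalin precursor, out of 8885 genes compared. Within the 19 dVenus+ libraries these values were 0.53, 0.39, 0.55, 0.45 and 0.53. For *Lphn1* the nearest genes were *Rbm5* (0.70) and *Ermap* (0.69), for *Flrt1* *Tacr1* (0.73) and *Gjc3* (0.69), for *Flrt2* *2900097C17Rik* (0.64) and *Nupl1* (0.56), and for *Flrt3* *Nom1* (0.64) and *Akap17b* (0.63). The libraries share mice, runs and the dVenus label, which these coefficients do not separate, and *Lphn2* was not among the genes compared.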

How the data were processed

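The files held counts of uniquely aligned reads per gene, deposited by the authors as raw counts with no normalization. Per the labels and the study's methods, dVenus+ and dVenus- granule cells were aspirated as nucleated patches, cDNA was made with SmartSeq2 and libraries with Nextera XT, single reads of 50 bases were aligned to mm10 with TopHat2 2.0.13 and counted with HTSeq 0.6.0. The HTSeq strand setting is not given in the sources used here. The 5 entries that name no gene were left out. Reads on no gene made up 16.4% to 59.7% of those considered. A table of all libraries held 11802 of the genes with equal counts in 38 of 38 libraries. No 2 libraries had equal counts.

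Members, lists and tests were chosen with earlier results of these data known. Counts were tested with edgeR 4.0.16 (quasi-likelihood test with Benjamini-Hochberg adjustment, TMM, R 4.3.3), each training group on its own with the mouse as block, for genes that reached 10 counts in a number of libraries no smaller than that of mice. Tests are two-sided. Interactions were fitted on 38 libraries (10 counts in 3 libraries), NS against HC on 7 (in 3) and FC against NS and HC on 19 (in 7). A gene was called at an adjusted p under 0.05 and a log2 fold change over 1 in size. The numbers pair libraries of the same mouse, whose deviations from the group means correlated at -0.03 to 0.24 in FC (median 0.04), -0.08 to 0.09 in NS and -0.02 to 0.07 in HC. Replicates are separate mice. DESeq2 1.42.0 was an alternative. 1 gene of the ligand list is not reported here. The fit was tested on simulated data. Lengths are unions of GENCODE M21 exons, which may differ from the NCBI transcripts counted.

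Named were the 6 members, partner genes called in a dVenus comparison, the partner gene with the highest mean of each list, and the genes most alike in pattern (log2 CPM, prior count 2, genes with 10 counts in 19 of 38 libraries), 5 for the member with the largest FC change and 2 for the others. Other genes with values were named after these were seen.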

Additional observations from a re-analysis of the deposited data

Results flagged for a closer look

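Of 12 groups of 4 NS libraries looked at (6 members in 2 cell types), 5 held a library far above the other 3. The rule flags about 1 group in 20 by chance where values are normally distributed. These levels are skewed and often at or near no counts, so the number flagged is not a measure against chance. *Lphn3* was highest at 258 normalized CPM in dVenus+ cells of NS mouse 18 and at 24.6 in dVenus- cells of NS mouse 21. *Lphn2* was highest at 8.22 in dVenus+ cells of mouse 18 and at 6.32 in dVenus- cells of mouse 19, with the other libraries of each group at 2 counts or fewer. *Flrt2* was highest at 5.12 in dVenus+ cells of mouse 18. Mouse 18 thus gave 3 of the 5 values.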

How the results depend on the processing

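*Lphn3* kept its direction in FC under every alternative run. Its log2 fold change ran from 4.40 to 4.96 with each FC mouse left out, called in 12 of 12 fits, and was 3.80 without the mouse as block. It was 4.46, 6.56 and 3.97 in the FC mice of 1 run (2, 4 and 6 mice), where it was not called. In each of these fits 0 members and 0 partner genes were called, beside 10, 3 and 0 of all genes tested. DESeq2's Wald test called 2 of 5 members tested in FC (*Lphn3* and *Flrt3*), 2 of 4 in NS (the same) and 1 of 4 in HC (*Flrt3*). It called 1 of 6 for FC minus NS (*Flrt3*) and 2 of 6 for FC minus HC (*Lphn1* and *Flrt3*). In each FC level comparison it called 1 of 5 (*Flrt1* in dVenus+, *Lphn3* in dVenus- cells). It called 5 of 18, 3 of 22 and 1 of 20 partner genes in FC, NS and HC, where edgeR called 1, 0 and 0. Of all genes tested, DESeq2 called 1651 of 9709 in FC, 671 of 8187 in NS and 625 of 7588 in HC. It called 1206 and 1565 of 14075 for FC minus NS and FC minus HC. For the FC levels it called 992 of 9967 in dVenus+ and 1442 of 10554 in dVenus- cells. edgeR's newer quasi-likelihood method, chosen after seeing the data, called 2 of 18 partner genes in FC, beside 422 of 9709 genes. In the dVenus+ FC level comparison it called 1 of 5 members (*Flrt1*), beside 625 of 9967 genes. The cause of these changes was not tested.

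All genes called in FC were 137, against 422 (newer method), 1651 (DESeq2), 77 (1 fit), 10, 3 and 0 (the runs of 2, 4 and 6 mice) and 56 to 118 with a mouse left out (66, 56, 90 and 79 without mice 01, 03, 06 and 12). In NS they were 0, against 1 (DESeq2's size factors), 13 (no filter), 671 (DESeq2), 4 (newer method), 12 (authors' table) and 5, 12, 0 and 10 without mice 18, 19, 20 and 21. In HC they were 2, against 0 (size factors, stricter filter, newer method, no block), 5 (no filter, authors' table), 625 (DESeq2), 1 (1 fit) and 2 to 3. FC level calls were 18 in dVenus+ (5, 992 and 625 with size factors, DESeq2 and the newer method) and 75 in dVenus- cells (150, 1442, 496, and 4 with no filter).

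Signs turned for *Lphn1* (0.60 in the 4 mice) and *Flrt2* (0.42 in the 2 mice, -0.95 to 0.58 with a mouse left out) in FC, and for FC minus NS of *Lphn2* (-0.11, DESeq2) and *Lphn3* (0.50, newer method). With a mouse left out, NS against HC ran in dVenus+ cells from -0.090 to 1.88 (*Lphn1*), -3.08 to 1.42 (*Lphn3*), -0.25 to 2.78 (*Flrt1*) and -0.98 to 0.13 (*Flrt3*), and in dVenus- cells from -0.0034 to 5.30 (*Lphn1*), -1.73 to 0.90 (*Flrt2*) and -1.39 to 4.99 (*Flrt3*). Other member calls were unchanged without the block. With 10 cells per library and 3 or 4 mice, the NS and HC fits had wide errors.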

Other observations

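The members did not vary as 1 block. Over the 38 libraries Spearman's rho was 0.41 between *Lphn1* and *Lphn3*, 0.14 between *Lphn3* and *Flrt3*, -0.10 between *Lphn3* and *Flrt2* and 0.17 between *Lphn1* and *Flrt3*. In the 19 dVenus- libraries *Lphn3* and *Flrt3* had a rho of 0.55 and in the 19 dVenus+ libraries one of 0.13. *Lphn3* and *Arc* had a rho of 0.66 over all libraries, 0.29 within dVenus+ and -0.03 within dVenus- libraries. *Flrt1* and *Arc* had -0.56 within dVenus+ libraries. These are descriptions over libraries that share mice and runs.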
